A study of Rattus norvegicus with 6 samples.

Results

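The genes examined here encode proteins of the intermediate filament family, and they were picked by name: the cytoplasmic filament genes *Vim*, *Nes*, *Gfap*, *Ina*, *Nefl*, *Nefm* and *Prph* and the nuclear lamin genes *Lmna*, *Lmnb1* and *Lmnb2*. All 10 names were found among the 17337 gene names of the mRNA tables, each as 1 locus, and none of these loci overlaps another listed gene. The cells were cortical neural progenitors taken from Sprague Dawley rats at embryonic day 14, either sex, and grown with bFGF and EGF until after a second passage. They were left untreated, so there is 1 condition. PolyA-selected mRNA of these cultures was sequenced for a pair of biological replicates, called A and B, with technical libraries A1 and A2 from the first and B1 and B2 from the second, and the question addressed is how abundant each filament type was and how far its level held between the replicates. The sample titles give the letter and the number of each library, and no label spells out that the number marks a technical library of 1 culture. Every contrast of A with B, or of B1 with B2, rests on that reading. The source of the cells limits what they stand for, since passaged cultures are a model of the embryonic cortex and not the tissue itself.

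Intermediate filaments are ropes of coiled-coil proteins that give cells mechanical strength. Which of them a cell makes follows its type: vimentin, encoded by *Vim*, is found in progenitors, glia and mesenchymal cells, nestin (*Nes*) in neural progenitors, GFAP in astrocytes and some radial glia, and alpha-internexin (*Ina*), the light and medium neurofilament proteins (*Nefl*, *Nefm*) and peripherin (*Prph*) in neurons. The lamins line the inside of the nuclear envelope. *Lmnb1* and *Lmnb2* encode B-type lamins, which are made in nearly all cells, whereas *Lmna* encodes lamins A and C, which are known to be scarce in early neural cells and abundant in mesenchymal tissue.

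Levels are given as FPKM, the fragments of a gene scaled to transcript length and to the size of the library, so that levels of different genes can be compared. Technical libraries were averaged first, and a mean ± SD is over the 2 biological replicates. With 2 replicates of 1 condition no test was possible, and differences are set against the spread between libraries. A gene was counted as differing between A and B when it averaged 1 FPKM or more, the replicates differed by at least 1 on the log2(FPKM + 1) scale and their libraries did not overlap. The read depth behind 1 FPKM was 22.7 to 24.4 reads per base in A1, A2 and B1 and 6.83 in B2, so values of B2 rest on fewer reads. All 8 markers of progenitors and radial glia that were looked up, *Sox2* and *Pax6* among them, averaged 1 FPKM or more, as did 7 of 7 astrocyte markers and 8 of 8 neuron markers. None of 5 endothelial and 5 microglial markers reached that mean. Markers of mesenchymal and meningeal cells were present as well (10 of 10 at 1 FPKM or more). Their summed level was 1369 and 1452 FPKM in A1 and A2 and 3120 and 4448 FPKM in B1 and B2, and 8 of the 10 were counted as higher in B, with B2 or without it, against 4.58% of all 10481 genes tested. In bulk RNA, fewer cells of a type and less RNA per cell cannot be told apart.

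The sequence before the start of 5 of the genes is shown for the 3 of the 10 genes that encode type III filament proteins, from the highest level to one below 1 FPKM (*Vim*, *Gfap* and *Prph*), and for the lamin genes whose libraries did not overlap between replicates (*Lmna* and *Lmnb1*). These are the 250 bases before the RefSeq start on GRCr8, a build other than rn6, and *Nefl* and *Nefm* are not shown. In rn6 the paper placed the starts of many genes away from the RefSeq start, so distances given here hold for the RefSeq start only. Capitals mark TATAAA, the letters of a TATA box, CCAAT and GGGCGG, each on either strand; none of these motifs overlaps another.
Vim, chr17:81577011-81577260, plus strand: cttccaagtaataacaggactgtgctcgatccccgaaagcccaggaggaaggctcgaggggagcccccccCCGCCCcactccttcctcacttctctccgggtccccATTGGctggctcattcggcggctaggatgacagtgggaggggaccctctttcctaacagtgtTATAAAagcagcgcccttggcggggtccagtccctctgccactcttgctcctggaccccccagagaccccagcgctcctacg
Gfap, chr10:88361662-88361911, minus strand: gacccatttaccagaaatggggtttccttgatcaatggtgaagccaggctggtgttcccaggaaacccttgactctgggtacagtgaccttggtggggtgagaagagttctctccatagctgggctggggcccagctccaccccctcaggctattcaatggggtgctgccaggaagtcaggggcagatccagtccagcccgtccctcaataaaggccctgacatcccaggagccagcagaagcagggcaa
Prph, chr7:132097039-132097288, plus strand: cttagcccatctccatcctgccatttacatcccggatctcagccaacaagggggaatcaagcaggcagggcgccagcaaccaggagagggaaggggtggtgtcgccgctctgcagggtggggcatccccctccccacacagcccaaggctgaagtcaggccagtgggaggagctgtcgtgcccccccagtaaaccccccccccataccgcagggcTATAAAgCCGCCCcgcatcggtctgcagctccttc
Lmna, chr2:176258236-176258485, minus strand: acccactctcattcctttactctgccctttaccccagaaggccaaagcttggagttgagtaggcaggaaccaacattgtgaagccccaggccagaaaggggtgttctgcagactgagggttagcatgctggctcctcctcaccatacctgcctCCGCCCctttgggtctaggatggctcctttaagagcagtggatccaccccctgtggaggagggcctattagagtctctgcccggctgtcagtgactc
Lmnb1, chr18:52373689-52373938, plus strand: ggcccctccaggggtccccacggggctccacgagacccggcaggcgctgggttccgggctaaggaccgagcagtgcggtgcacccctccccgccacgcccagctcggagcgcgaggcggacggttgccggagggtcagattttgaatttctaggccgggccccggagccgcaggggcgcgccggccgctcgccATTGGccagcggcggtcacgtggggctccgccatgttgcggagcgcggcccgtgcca

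TATAAA stood before *Vim* and *Prph*, in both on the strand of the gene, at bases 82 to 77 and 35 to 30 before the start. Of the 8 genes with a sequence these 2 held it, and 12.9% of 33469 RefSeq promoter windows of the same length did so on either strand (8.06% on the strand of the gene). CCAAT, on the opposite strand, was found in *Vim* and *Lmnb1* (34% of all windows), and GGGCGG in 5 of the 8 genes (30.5% of all windows), *Lmna* and *Prph* included. The *Gfap* window held none of the 3 motifs. The share of G and C was 74.8% for *Lmnb1*, 56.4% for *Lmna* and 49.6% for *Lmnb2*, against a median of 51.2% over all windows. The motifs were chosen after the sequences were seen, so these counts cannot be weighed against the shares of all windows. A match in letters is a description and not a binding site.

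*Vim* was by far the most abundant of the 10. In rn6, the build of all positions of the 10 genes given from here on, it occupies chromosome 17 from 80882715 to 80891200 (plus strand). Its level was 2882 and 3171 FPKM in A1 and A2 and 2652 and 4458 FPKM in B1 and B2, so that the libraries of B enclosed those of A. The replicate means were 3026 and 3555 FPKM. Within the 7 cytoplasmic genes *Vim* made up 84.4% ± 1.01 of the summed FPKM (SD, n = 2), and in single libraries between 82.1% and 86.2%. The 10 genes together held 0.671% ± 0.0751 of all TPM (SD, n = 2), a measure that sums to the same total in every library.

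*Nes*, the other filament gene of neural progenitors, was expressed at a much lower level. It had 35.7 and 36.9 FPKM in A1 and A2 and 28.2 and 55.4 FPKM in B1 and B2, again with the lowest and the highest value in replicate B. Its mean of 39.1 ± 3.88 FPKM (SD, n = 2) placed it at rank 2762, above 84.1% of gene names. *Vim* exceeded *Nes* 83.3-fold in replicate A and 87.2-fold in replicate B, and in single libraries from 80.4-fold in B2 to 94.1-fold in B1. The gap between these genes therefore varied little where both levels moved between the libraries of replicate B. *Nes* occupies chromosome 2 from 187343929 to 187352971 (plus strand), with *Lmna* on the minus strand 489912 bp further along.

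*Gfap* ranked second among the 10 genes. Its locus is chromosome 10 from 90990762 to 90999435 (minus strand). The FPKM of *Gfap* was 502 and 460 in A1 and A2 and 419 and 904 in B1 and B2, and the value of B2 stood apart from the other 3 libraries. The mean of 571 ± 127 FPKM (SD, n = 2) was rank 148 among all gene names. Relative to *Vim* in the same library, a ratio that does not depend on library size, *Gfap* was at 0.174 and 0.145 in A1 and A2 and at 0.158 and 0.203 in B1 and B2. The libraries of A and B overlap in this ratio, with means of 0.160 and 0.180.

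The 7 astrocyte markers, *Gfap* not included, were summed for comparison. Their level was 1355 and 1485 FPKM in A1 and A2, 1266 in B1 and 1130 in B2, the library in which *Gfap* was highest, and the low sum of B2 came from *Aldoc*, which had 568 FPKM in B1 and 297 FPKM in B2. Of the 7 markers, 2 were higher in B2 than in B1: *Gja1*, a gap junction protein of astrocytes, with 150 FPKM in B1 and 328 FPKM in B2, and *Glul*. *Aldoc*, a glycolytic enzyme of astrocytes, was the highest of them with 680 FPKM in A and 433 FPKM in B. *S100b*, which encodes a calcium-binding protein and came next by level, was higher in A (384 against 176 FPKM), and *Glul*, glutamine synthetase, was higher in B (204 against 82.4 FPKM). These 2 were the markers counted as differing, 1 in each direction, against 1.57% of all genes higher in A and 4.58% higher in B. Of the 7 markers, 4 had a log2 difference towards B, and the median was 0.15. The libraries of *Aqp4*, *Gja1* and *Glul* were higher in B without overlap, against 28.1% of all genes, and those of *S100b*, *Slc1a2* and *Aldoc* were higher in A, against 32%. Without B2, the log2 difference of *S100b* was -0.92, below the size required, and that of *Glul* was 1.14.

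**Figure D1:**
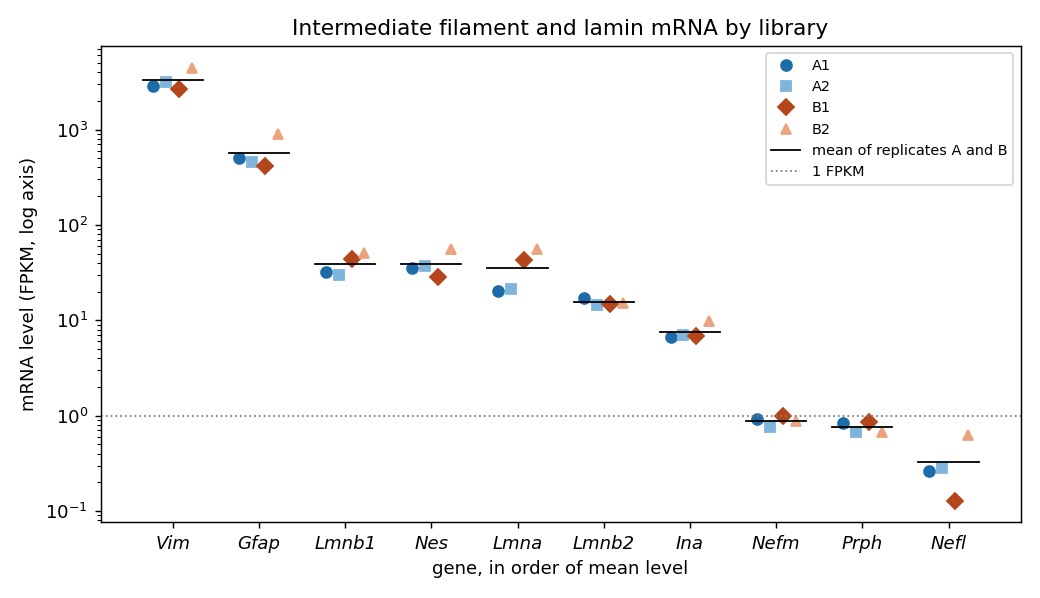
mRNA level in FPKM, on a log axis, of the 10 genes in the 4 libraries, with circles and squares for A1 and A2, diamonds and triangles for B1 and B2, and a bar at the mean of replicates A and B. *Vim* and *Gfap* sit above the rest in every library, *Nefm*, *Prph* and *Nefl* lie below 1 FPKM in every library, and B2 is the highest library for 7 of the 10 genes.

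Of the 4 neuronal filament genes, *Ina* was the only one with a mean above 1 FPKM. Alpha-internexin, its product, is made early in the differentiation of neurons. The level of *Ina* was 6.63 and 6.94 FPKM in A1 and A2 and 6.86 and 9.74 FPKM in B1 and B2, a mean of 7.54 ± 1.07 FPKM (SD, n = 2). Libraries A1, A2 and B1 lie close together and B2 lies above them. *Ina*, on chromosome 1 from 266781617 to 266794428 (plus strand), exceeded the sum of *Nefl*, *Nefm* and *Prph* between 3.26-fold and 4.47-fold in each library.

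The neurofilament genes lie near each other on chromosome 15, *Nefl* from 44799378 to 44803251 on the plus strand and *Nefm* from 44855308 to 44860595 on the minus strand, with 52056 bp between them. The level of *Nefm* was 0.929 and 0.764 FPKM in A1 and A2 and 0.988 and 0.877 FPKM in B1 and B2. For *Nefl* the values were 0.266 and 0.281 FPKM in A1 and A2 and 0.129 and 0.631 FPKM in B1 and B2. The spread of *Nefl* within replicate B was 4.90-fold, the widest of the 10 genes, at a read depth of 3.14 reads per base in B1 and 4.31 in B2, and without B2 its mean of 0.327 FPKM became 0.201 FPKM. The depth of *Nefm* was 6.00 reads per base in B2 and 17.4 to 24.1 in the others.

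*Prph*, the filament gene of peripheral neurons, had 0.835 and 0.682 FPKM in A1 and A2 and 0.866 and 0.670 FPKM in B1 and B2. Its locus is chromosome 7 from 140742418 to 140746197 (plus strand). Replicates A and B did not separate, and their means of 0.758 and 0.768 FPKM were closer than the technical libraries of either. *Vim*, which encodes a protein of the same class, was 4312-fold higher. Both genes have TATAAA before the start, at different positions, and what part it has in their levels was not tested. The 4 other peripheral neuron markers examined were low too, with a summed level of 0.784 to 1.35 FPKM per library.

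Of 8 neuron markers outside the filament family, *Tubb3*, *Stmn2* and *Dcx* had a higher mean than *Ina*, and all 8 were above *Nefl*, *Nefm* and *Prph*. Their sum was 171 and 195 FPKM in A1 and A2 and 151 and 172 FPKM in B1 and B2, and the groups overlap. *Tubb3*, a tubulin of young neurons, made up most of it with 118 ± 9.88 FPKM (SD, n = 2), and *Stmn2*, a regulator of microtubules in growing axons, had 21.4 ± 1.46 FPKM. *Rbfox3*, which marks mature neurons, had 3.62 and 3.34 FPKM in A1 and A2 and 3.09 and 1.95 FPKM in B1 and B2. Of the 8 markers, 6 leaned towards A, with a median log2 difference of -0.37. The libraries of 5 (*Dcx*, *Map2*, *Rbfox3*, *Snap25* and *Syp*) were lower in B without overlap, against 32% of all genes. Those of *Mapt* were higher in B without overlap, against 28.1% of all genes. None of the 8 was counted as differing, against 6.15% of all genes.

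**Figure D2:**
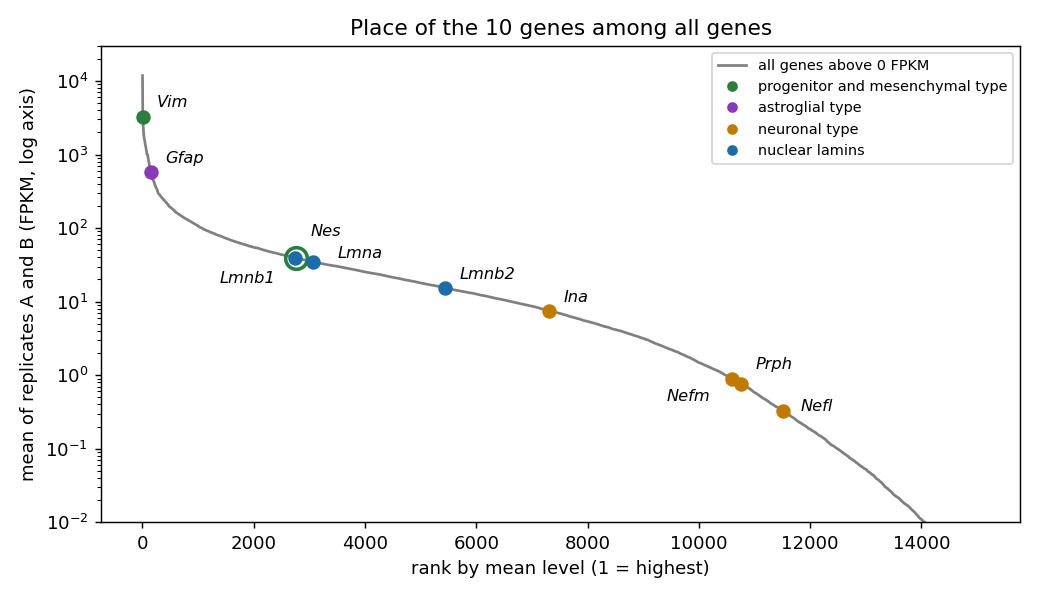
Mean FPKM of replicates A and B, on a log axis, against the rank of the gene, with the curve of all genes above 0 FPKM in grey (values under 0.01 FPKM are not drawn) and the 10 genes coloured by filament type, *Nes* as an open ring because *Lmnb1* lies at nearly the same place. *Vim* is at rank 5 and *Gfap* at rank 148, the lamins and *Nes* lie between ranks 2748 and 5442, and *Ina*, *Nefm*, *Prph* and *Nefl* follow from rank 7307 to rank 11509.

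Ordered by mean level, the 10 genes form 9 neighbouring pairs, and a pair was taken as apart when the lowest library of the higher gene was above the highest library of the lower gene. By this measure 6 pairs were apart: *Vim* and *Gfap*, *Gfap* and *Lmnb1*, *Lmna* and *Lmnb2*, *Lmnb2* and *Ina*, *Ina* and *Nefm*, and *Prph* and *Nefl*. The first pair differed 5.76-fold in the mean and the second 14.5-fold. *Lmnb1*, *Nes* and *Lmna* could not be ordered. *Lmnb1* was above *Nes* in 1 library of 4 although its mean was higher, and *Nes* was above *Lmna* in 2 of 4. *Nefm* was above *Prph* in every library, but their ranges overlap.

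The 3 lamin genes had means between 15.4 and 39.3 FPKM, and *Lmna* was the gene that differed most between the replicates. Its locus is chromosome 2 from 187842884 to 187863552 (minus strand). The FPKM of *Lmna* was 20.3 and 21.2 in A1 and A2 and 42.4 and 56.6 in B1 and B2. Both libraries of B were above both of A, and the replicate means of 20.7 and 49.5 FPKM differed 2.39-fold. This is a difference of 1.20 on the log2(FPKM + 1) scale, on which the technical libraries were 0.06 apart in A and 0.41 apart in B.

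*Lmnb1* moved in the same direction to a smaller extent. Its locus is chromosome 18 from 51785124 to 51822264 (plus strand). Its level was 32.1 and 30.0 FPKM in A1 and A2 and 43.8 and 51.3 FPKM in B1 and B2, without overlap, and the replicate means differed 1.53-fold, or 0.59 on the log2 scale. *Lmnb2*, on chromosome 7 from 11660902 to 11676936 (plus strand), showed no such difference. It had 17 and 14.6 FPKM in A1 and A2 and 14.8 and 15.1 FPKM in B1 and B2, with the replicates overlapping and a mean of 15.4 ± 0.584 FPKM (SD, n = 2). The highest and lowest libraries of *Lmnb2* were 1.17-fold apart, the narrowest range of the 10 genes.

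The balance of the lamins therefore differed between replicates. The ratio of *Lmna* to the sum of *Lmnb1* and *Lmnb2* was 0.413 and 0.474 in A1 and A2 and 0.724 and 0.852 in B1 and B2, a mean of 0.616 ± 0.244 (SD, n = 2). All libraries had less *Lmna* than B-type lamin mRNA. Against *Lmnb1* alone, the ratio was 0.632 and 0.705 in A1 and A2, 0.969 in B1 and 1.10 in B2, so that *Lmna* passed *Lmnb1* in B2. *Lmna* made up 30.7% of lamin FPKM in replicate A and 44.0% in replicate B. The *Lmna* value covers lamins A and C together, since the tables are per gene.

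**Figure D3:**
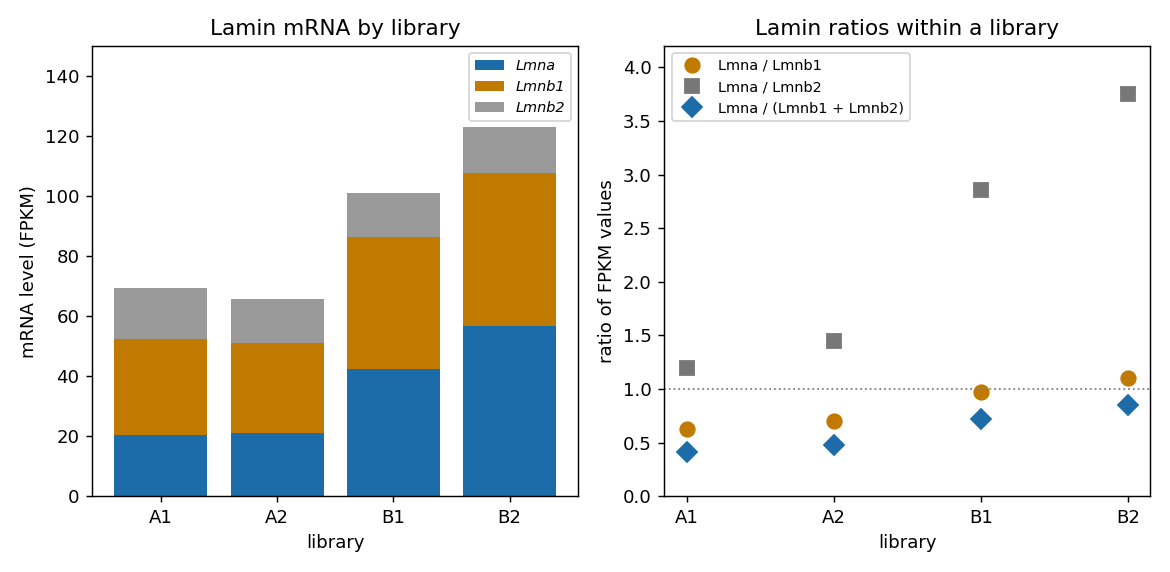
Left, FPKM of *Lmna*, *Lmnb1* and *Lmnb2* stacked for each library. Right, the ratio of *Lmna* to *Lmnb1*, to *Lmnb2* and to their sum within each library, with a dotted line at 1. The summed lamin level is 69.4 and 65.8 FPKM in A1 and A2 and 101 and 123 FPKM in B1 and B2, and each ratio is higher in both libraries of B than in both of A.

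Among all genes that averaged 1 FPKM or more, 6.15% of 10481 were counted as differing between the replicates, with 4.58% higher in B and 1.57% higher in A. Of the 10 genes, 7 reached a mean of 1 FPKM and 1 of these, *Lmna*, was counted. Among the 10481 genes, 3.33% had a larger shift towards B than *Lmna*. Without B2 the difference of *Lmna* was 0.999962, just under the size required, and none of the 10 genes was counted, while 5.50% of all genes were. Libraries that did not overlap, whatever the size of the difference, were found for 2 of the 7 (*Lmna* and *Lmnb1*, both higher in B), against 60.1% of all genes (28.1% higher in B and 32% higher in A). The median log2 difference of the 7 genes, B minus A, was 0.24, beside -0.03 for all genes tested. Without B2 it turned to -0.08, beside -0.01 for all genes.

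The remaining filament genes did not separate by replicate, and the direction of 4 of them rested on library B2. *Vim*, *Nes*, *Gfap* and *Nefl* had a higher mean in B than in A, and without B2 their log2 differences were -0.19, -0.35, -0.20 and -0.17. Between the technical libraries B1 and B2, *Gfap* differed by 1.11, *Nes* by 0.95 and *Vim* by 0.75 on the log2 scale, always with B2 higher. Among the 7 genes, 3 were higher in B2 than in B1 by at least 0.58, against 8.27% of all genes, and in 6 of the 7 B2 was the highest of the 4 libraries, against 29.7% of all genes. The corresponding differences between A1 and A2 ranged from -0.21 for *Lmnb2* to 0.14 for *Vim* over the 10 genes. None of the 7 was 0.58 or more apart between A1 and A2, against 1.59% of all genes.

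**Figure D4:**
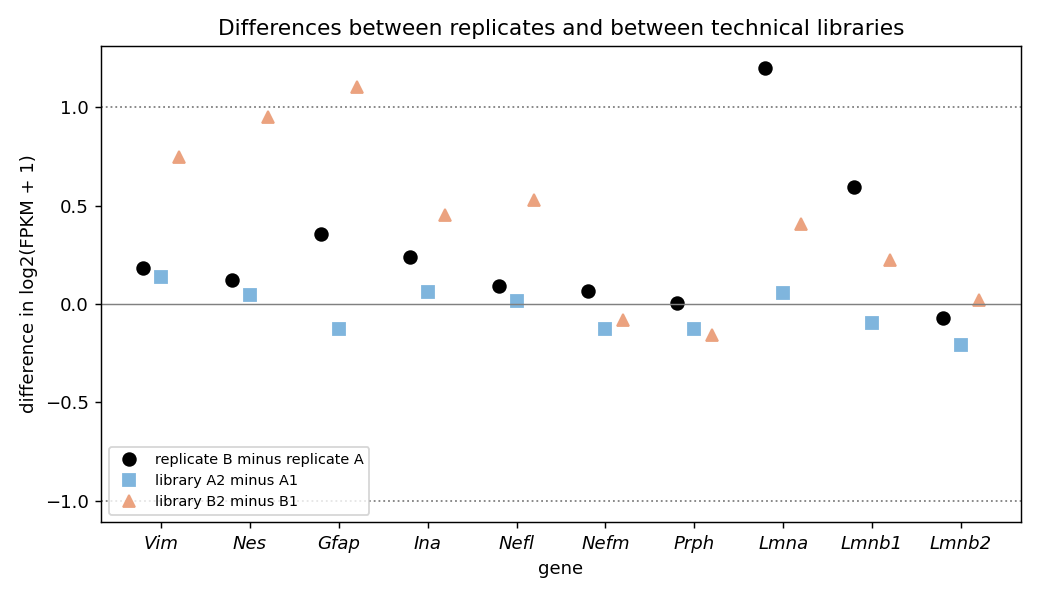
Differences on the log2(FPKM + 1) scale for the 10 genes, with circles for replicate B minus replicate A, squares for library A2 minus A1 and triangles for library B2 minus B1, and dotted lines at 1 and -1. The circle of *Lmna* (1.20) is beyond the dotted line and above its triangle (0.41), whereas for *Vim*, *Nes* and *Gfap* the triangle, at 0.75 to 1.11, is above the circle.

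Levels of the mesenchymal and meningeal markers were set beside these genes because *Vim* and *Lmna* are both known from such cells. Each of the 10 markers had a higher mean in B (9 of 10 without B2, the exception being *Tagln*), with a median log2 difference of 1.81. *Tagln*, a smooth muscle actin-binding protein, was the highest with 744 FPKM in A and 992 FPKM in B. Its level in B1 was 593 FPKM, below both libraries of A, and without B2 its log2 difference was -0.32. The next, *Col3a1*, encodes a fibrillar collagen and had 204 and 768 FPKM in A and B, and *Col1a2*, another, had the largest log2 difference of the list (2.33). Both libraries of B were above both of A in the summed marker level, as they were for *Lmna*. For *Vim* they were not, as B1 had the lowest *Vim* level of the 4 libraries and the second highest marker level. What part these cells have in the levels of either gene was not tested.

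Of the 8 progenitor markers, 2 were counted as higher in A and none as higher in B, against 1.57% and 4.58% of all genes, and 3 of the 8 had a log2 difference towards B (1 without B2). Their summed level was 18173 and 19956 FPKM in A1 and A2 and 7485 and 6459 FPKM in B1 and B2, most of it from *Fabp7*, a fatty acid binding protein of radial glia. The markers counted as higher in A, with B2 or without it, were *Fabp7* and *Hes5*, a target of Notch signalling. *Nes*, which marks the same cells, had replicate means of 36.3 and 41.8 FPKM and was not counted, and without B2 its log2 difference was -0.35.

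**Figure D5:**
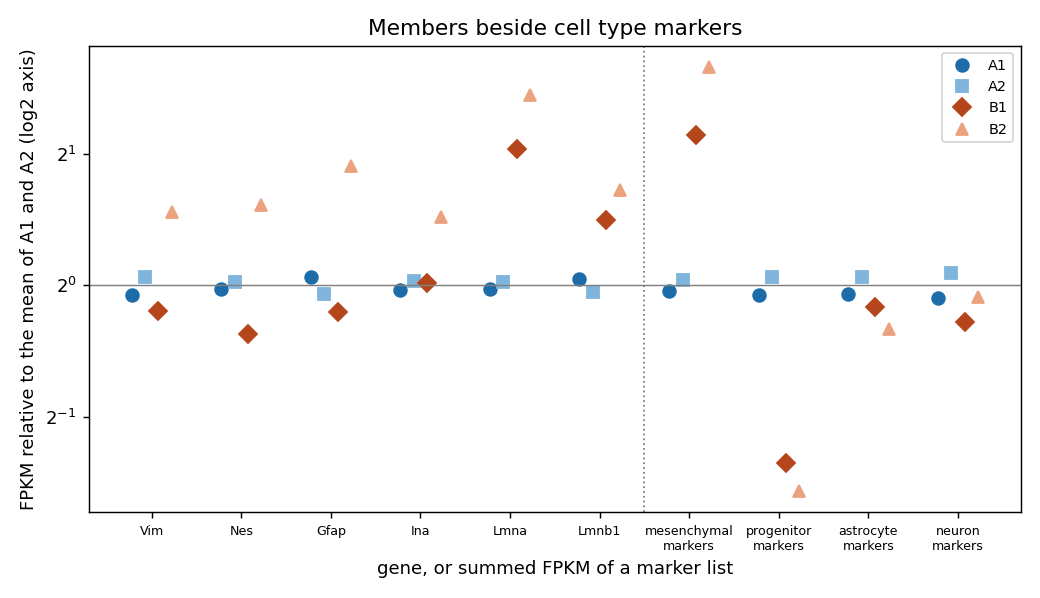
FPKM of *Vim*, *Nes*, *Gfap*, *Ina*, *Lmna* and *Lmnb1* and the summed FPKM of 4 marker lists in each library, divided by the mean of A1 and A2, on a log2 axis with a line at 1. Both libraries of B are above 1 for *Lmna*, *Lmnb1*, the mesenchymal markers and *Ina*, the last at 1.01 in B1. Both are below 1 for the summed progenitor markers, which are mostly *Fabp7*, and for the summed astrocyte and neuron markers. For *Vim*, *Nes* and *Gfap* B1 is below 1 and B2 above it.

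Other genes of the filament and lamina systems were examined as fixed lists. Of 13 further cytoplasmic filament genes, 12 were found and 6 averaged 1 FPKM or more. The highest were *Iffo1*, which encodes an intermediate filament family orphan, with 37.3 FPKM in A and 27.7 FPKM in B, and *Synm*. Synemin, its product, joins vimentin and desmin filaments. *Synm* had 20.3 and 21.4 FPKM in A1 and A2 and 15.8 and 28.6 FPKM in B1 and B2, with the lowest and highest values in B as for *Vim* and *Nes*. *Krt19*, an epithelial keratin, was the 1 gene of these 6 counted as higher in B, against 4.58% of all genes. It had 0.485 and 0.457 FPKM in A1 and A2, 1.05 in B1 and 6.59 in B2, and without B2 its log2 difference was 0.48. Its mean in A was 0.471 FPKM, so its place among these 6 also rested on replicate B, and mainly on B2.

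Cytolinkers tie intermediate filaments to actin, microtubules and junctions. Of 7 such genes, 4 were found and 2 reached 1 FPKM. Neither was counted as differing, a number too small to set against the 6.15% of all genes. *Plec*, which encodes plectin, had 25.6 and 25.0 FPKM in A1 and A2 and 16.4 and 41.0 FPKM in B1 and B2, and *Macf1*, a spectraplakin, had 35.5 and 39.4 FPKM in A1 and A2 and 16.5 and 27.4 FPKM in B1 and B2. *Plec* shows the wide range within B, and *Macf1* was lower in both libraries of B. Without B2 the log2 difference of *Macf1* was -1.13, past the size required.

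Of 14 genes for proteins that bind the lamina or span the nuclear envelope, 11 were found, 10 had at least 1 FPKM and none was counted in either direction, with B2 (6.15% of all genes) or without it (5.50%). With 10 genes, this is near the share of all genes. Their median log2 difference was -0.03. Libraries of 4 of the 10 (*Lemd2*, *Lemd3*, *Ankle2* and *Sun1*) were lower in B without overlap, against 32% of all genes. Those of *Emd* were higher in B without overlap, against 28.1% of all genes. *Banf1*, which encodes the chromatin-binding protein BAF, was the highest with 192 and 221 FPKM in A1 and A2 and 218 and 240 FPKM in B1 and B2, overlapping between replicates. *Tmpo*, which encodes the LAP2 proteins that bind lamins, had 43.9 ± 0.782 FPKM (SD, n = 2). The list of genes for the processing of lamin tails, which also holds *Narf*, a prelamin A binding factor, was found in full and above 1 FPKM (6 of 6). None was counted as differing, again near the share of all genes (6.15%). *Icmt* and *Zmpste24* were higher in B without overlap, against 28.1% of all genes, and none of the 6 was lower in B without overlap. *Fnta*, a subunit of the farnesyltransferase that attaches a lipid to these tails, had 58.8 ± 0.545 FPKM, and *Rce1*, the protease that trims them, had 35.3 ± 2.76 FPKM.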

How the data were processed

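PolyA RNA-seq of 2 biological replicates (A and B, by the sample labels), each with 2 libraries taken as technical, was used. The Start-seq libraries of the series were not analysed here. The authors aligned reads to rn6 with STAR, and the submitters' processing notes also name StringTie, whose layout the tables have. The methods name Rsubread and DESeq2 for FPKM, and versions are not given in the sources used here. The deposited FPKM were used as given and summed by gene name. The deposited TPM served as an alternative. The deposited coverage, a signal of mean reads per base, was used for depth only.

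FPKM was averaged over technical libraries within a replicate. Differences between replicates are differences of mean log2(FPKM + 1), a scale that understates changes of low genes. No p-value was computed. The genes and lists were chosen with earlier results of these data known. All 10 genes are named, with the 2 highest and up to 5 differing genes of each list as far as the text turns on them. Alternatives were TPM, median-of-ratios scaling, a pseudocount of 0.1 in place of 1, other thresholds, and replicates or libraries left out. Promoter windows are RefSeq, GRCr8, with 8 of the 10 genes matched, and the motifs were chosen after the sequences were seen. Python 3.11.15, pandas 2.3.3, numpy 2.4.6 and matplotlib 3.10.9 were used.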

Additional observations from a re-analysis of the deposited data

Results flagged for a closer look

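Among 14 values examined across the 4 libraries, 3 had 1 library far from the other 3, judged by its distance from the closest one as a share of the whole range, and all 3 were in B2. Among independent samples about 1 in 20 would stand out so by chance, and these libraries form technical pairs. *Gfap* had 904 FPKM in B2 and 419 to 502 FPKM in the others, a distance only just past the limit. *Ina* had 9.74 FPKM in B2 and 6.63 to 6.94 FPKM in the others. The read depth per FPKM was 6.83 in B2 and 22.7 to 24.4 in the others.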

How the results depend on the processing

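The number of the 10 genes counted as differing between A and B was 1 in the full data, 2 with a log2 difference of at least 0.58 (*Lmna* and *Lmnb1*, beside 1732 of all genes), and 0 to 1 with a library left out. It was 0 without B2. The count over all genes was 645, and 894 with a pseudocount of 0.1, 759 with TPM and 329 among genes averaging 10 FPKM or more. With 1 replicate or library left out, the neighbouring pairs that were apart numbered 6 to 8, and the ratio of *Lmna* to B-type lamins was 0.444 to 0.788. The mean level of *Lmna*, 35.1 FPKM, was 49.5 without replicate A and 20.7 without replicate B. Of 70 alternatives for single log2 differences, 8 changed the sign, in 6 genes, none of them *Lmna*. That of *Gfap*, 0.36, ranged from -0.20 without B2 to 0.91 without B1. The cause was not tested. Some of these alternatives (libraries A1, A2 and B1 left out for levels, order and ratios, and B2 for the medians and the lists) were chosen after seeing the data. No paired analysis was possible because there is 1 condition. Depth limits *Nefl*, *Nefm* and *Prph* most, and B2 in general.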
